A study of Homo sapiens with 15 samples.

Results

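Cells from metachronous brain metastases (M-BM, 4 libraries) were compared with cells from synchronous brain metastases (S-BM, 4 libraries) of HCC1954, an established HER2-positive human breast cancer line. Both groups derive from that line, were cultured overnight in the same medium (R3F) before RNA extraction, and differ, per the labels, in the kind of brain metastasis they came from. The labels name no animals, clones or passage numbers, and the spread behind each p-value is that between libraries, which may be technical. The comparison uses 8 of the 15 RNA-seq libraries of the series. The other 7 are latent or residual brain-tropic cells (Lat, 4 libraries) and the parental line (Pa, 3 libraries), which are used below as levels beside single results. Of 19845 gene names, 9422 reached a normalised count of 10 in 4 or more of these 8 libraries and were tested. The other 10423 were not.

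A brain metastasis is called synchronous when it is found together with the primary tumour and metachronous when it appears after an interval without detectable disease, during which disseminated cells can stay latent. HER2 (ERBB2) is a receptor tyrosine kinase whose gene is amplified in this subtype, with several neighbouring genes carried along. Spread to the brain draws on secreted and surface proteins, on escape from immune cells and on the use of nutrients that differ between brain and breast.

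Read totals recovered from the values were 20552369, 21843860, 20748027 and 21084948 in M-BM 1 to 4, against 17553919, 20048838, 13253870 and 17142107 in S-BM 1 to 4. Every M-BM library was deeper than every S-BM library. A count of 3 reads corresponds to a normalised count of 0.136 to 0.148 in M-BM and 0.152 to 0.225 in S-BM, limits that cover counting error only. The squared difference between S-BM 3 and S-BM 4, as a median over genes, was 2.45 times that of counting noise. It was 10.2 to 32.7 times for the other pairs within a group. Both S-BM 3 and S-BM 4 carry low levels of ERBB2 and its neighbours. M-BM 4 stood apart in another way. The non-negative weighted sum of the other 7 libraries closest to it held 0.748 of M-BM 3, 0.155 of S-BM 1 and 0.0859 of S-BM 2, with a median absolute log2 deviation over genes of 0.0822, against 0.131 for M-BM 3 alone. The summed S-BM weight was 0.0747 for M-BM 1, 0.0335 for M-BM 2 and 0 for M-BM 3. In the other direction, the summed M-BM weight was 0.213 for S-BM 1, all of it from M-BM 4. It was 0, 0.00411 and 0.0137 for S-BM 2 to 4. The deviation for S-BM 1 was 0.131, against 0.186 for S-BM 4 alone. How M-BM 4 and S-BM 1 came to resemble such sums was not tested, and each result is given with M-BM 4 or without it where that matters. The astrocyte genes GFAP, ALDH1L1 and GJA1, the neuronal genes SNAP25 and GAP43, the oligodendrocyte genes MOG and MOBP, and the immune genes AIF1 and CD3E had under 3 reads in each of the 8 libraries. The whole lists summed to 31.0 to 38.5 in M-BM and 43.9 to 73.2 in S-BM for 6 neuronal genes, mostly TUBB3. For 7 oligodendrocyte genes, led by MBP, the sums were 168 to 231 in M-BM and 195 to 225 in S-BM. For 6 endothelial genes, led by EGFL7, they were 10.4 to 19.5 in M-BM and 25.9 to 36.1 in S-BM. For 6 fibroblast genes, led by FAP, they were 21.1 to 39.4 in M-BM and 34.1 to 58.4 in S-BM. For 8 immune genes, led by CD68, they were 16.99 to 22.4 in M-BM and 11.6 to 29.7 in S-BM. The neuronal and endothelial sums, like the astrocyte sums given below, were higher in S-BM without overlap. The part of these lists in the results was not tested. The 10 epithelial markers summed to 5244 to 6013 in M-BM and 6811 to 7576 in S-BM.

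At an adjusted p below 0.05 (limma, Benjamini-Hochberg over the 9422 genes), 4965 genes differed (52.7%), 2483 higher in M-BM (26.4%) and 2482 lower (26.3%). The median log2 difference over all genes was −0.00092. At least 2-fold changes were fewer: 351 genes were higher (3.73%) and 531 lower (5.64%). At least 8-fold, 24 were higher (0.255%) and 29 lower (0.308%). The 4 libraries of each group did not overlap for 4351 genes (46.2%). Of the 4965 calls, 4573 held in the same direction without M-BM 4, 3829 without S-BM 3 and S-BM 4, and 3753 under both. The count itself was 4743 without M-BM 4 (50.3%; 25.1% higher and 25.2% lower), 4303 without S-BM 3 and S-BM 4 (45.7%; 22.1% higher and 23.6% lower) and 4249 without all 3 (45.1%). The wide, shallow spread of differences is shown in the plot of level against difference.

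**Figure D1:**
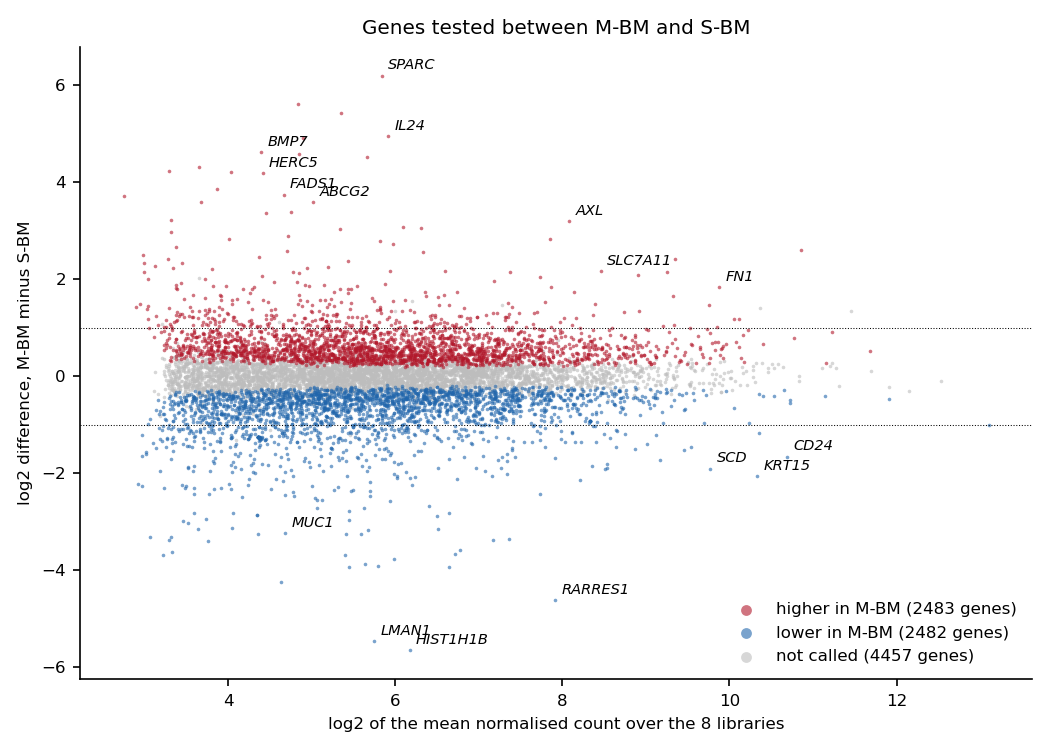
Log2 difference (M-BM minus S-BM) against the log2 mean normalised count over the 8 libraries, 1 point per gene tested, with dotted lines at a 2-fold change. Higher calls (2483) and lower calls (2482) are about equal in number, and the largest differences are those of SPARC above and HIST1H1B and LMAN1 below.

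Among genes at or above the median level that kept their call without M-BM 4 and without S-BM 3 and S-BM 4, those with the largest rises encoded secreted, surface and membrane proteins. SPARC, a secreted glycoprotein that binds collagen (chromosome 5, 151661096 to 151686915, RefSeq positions on GRCh38.p14, here and below), had normalised counts of 113, 186, 89.0 and 67.2 in M-BM 1 to 4, against 0.285, 1.06, 0.300 and 0.349 in S-BM 1 to 4. It was all but unread in S-BM and reached its highest level in M-BM 2 (log2 difference 6.19, SE 0.63, adjusted p = 6.81e-06, limma). Its Lat libraries averaged 12.5 ± 19.6 (SD, n = 4) through 1 library, and the parental line held 0.187 to 0.655. IL24 (chromosome 1, 206897443 to 206904139), which encodes a secreted cytokine, stood at 101.04, 51.8, 183 and 136 in M-BM 1 to 4, against 4.33, 0.455, 3.67 and 3.26 in S-BM 1 to 4 (log2 difference 4.94, SE 0.43, adjusted p = 2.2e-06, limma). Neither gene's groups overlapped. In bulk RNA, fewer cells that express a gene and less RNA per cell cannot be told apart, here or below. Fold changes and log2 differences are on the scale of log2(normalised count + 1), which understates the change of low genes. FAM129A, a protein induced by cell stress, was at 38.5, 167, 66.8 and 50.3 in M-BM 1 to 4, against 0.798, 1.47, 0.0750 and 0.466 in S-BM 1 to 4 (log2 difference 5.41, SE 0.37, adjusted p = 3.12e-07, limma). Unlike SPARC it was also present in the parental line, at 19.6 to 38.1. The carboxylesterase CES1, which hydrolyses esters of lipids and drugs, had 58.3, 69.1, 60.1 and 45.2 in M-BM 1 to 4, against 4.73, 1.47, 0 and 0.0582 in S-BM 1 to 4. CES1 was likewise present in the parental line (51.9 to 116), and its log2 difference of 4.90 was 3.96 without S-BM 3 and S-BM 4, the libraries where it was near 0.

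A pair of genes best known from synapses followed. IL1RAPL1, a synaptic adhesion protein of the interleukin 1 receptor family, had 32.2, 31.9, 93.9 and 67.1 in M-BM 1 to 4, against 3.08, 0.253, 1.1997 and 0.931 in S-BM 1 to 4, and it was 23.9-fold higher (SE 0.36 in log2, adjusted p = 1.14e-06, limma). NETO2, an auxiliary subunit of kainate receptors, had 121, 76.4, 108 and 85.1 in M-BM 1 to 4, against 5.30, 7.54, 1.42 and 1.45 in S-BM 1 to 4, with its lowest values in S-BM 3 and S-BM 4 (log2 difference 4.52; 3.72 without them). The drug efflux pump ABCG2 (chromosome 4, 88090264 to 88231626) had 55.9, 57.3, 74.5 and 54.7 in M-BM 1 to 4, against 5.36, 3.49, 3.97 and 3.84 in S-BM 1 to 4 (log2 difference 3.58, SE 0.15, adjusted p = 4.48e-09, limma). Its level in M-BM was 11.9-fold that of S-BM, and its adjusted p stayed below 0.05 under every alternative run.

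AXL, a receptor tyrosine kinase activated by GAS6 (chromosome 19, 41219223 to 41261766), was abundant in M-BM and uneven in S-BM, with 778, 478, 358 and 272 in M-BM 1 to 4, against 50.02, 7.03, 109 and 114 in S-BM 1 to 4. The log2 difference of 3.20 (SE 0.63, adjusted p = 0.000890, limma) was 4.43 without S-BM 3 and S-BM 4 and 2.34 without S-BM 2, where AXL was lowest. FOSL1, the AP-1 subunit FRA-1, had 152, 93.0, 188 and 133 in M-BM 1 to 4, against 21.5, 6.88, 19.6 and 19.96 in S-BM 1 to 4 (log2 difference 3.05, SE 0.29, adjusted p = 4.9e-06, limma). The actin-binding profilin PFN2 had 154, 115, 125 and 97.2 in M-BM 1 to 4, against 11.5, 8.75, 19.1 and 16.7 in S-BM 1 to 4, 8.46-fold higher in M-BM. AGPAT9, an acyltransferase at the first step of glycerolipid synthesis, rose 8.14-fold (adjusted p = 1.88e-06, limma), and PADI3, a peptidylarginine deiminase, 7.06-fold (adjusted p = 1.11e-05). FAM83A, a scaffold tied to growth factor signalling, averaged 109.7 ± 63.6 in M-BM and 15.8 ± 11.2 in S-BM (SD, n = 4 each) and rose 6.58-fold. A rise here is against S-BM and not against the parental line. Parental levels lay above every S-BM library for FAM83A (43.8 to 58.3), PADI3 (99.8 to 183), PFN2 (49.5 to 53.4) and NETO2 (23.9 to 28.2). They did not for AXL (4.57 to 9.18), FOSL1 (3.44 to 3.87), ABCG2 (3.38 to 7.21), AGPAT9 (4.86 to 8.49) and IL1RAPL1 (0 to 0.132).

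**Figure D2:**
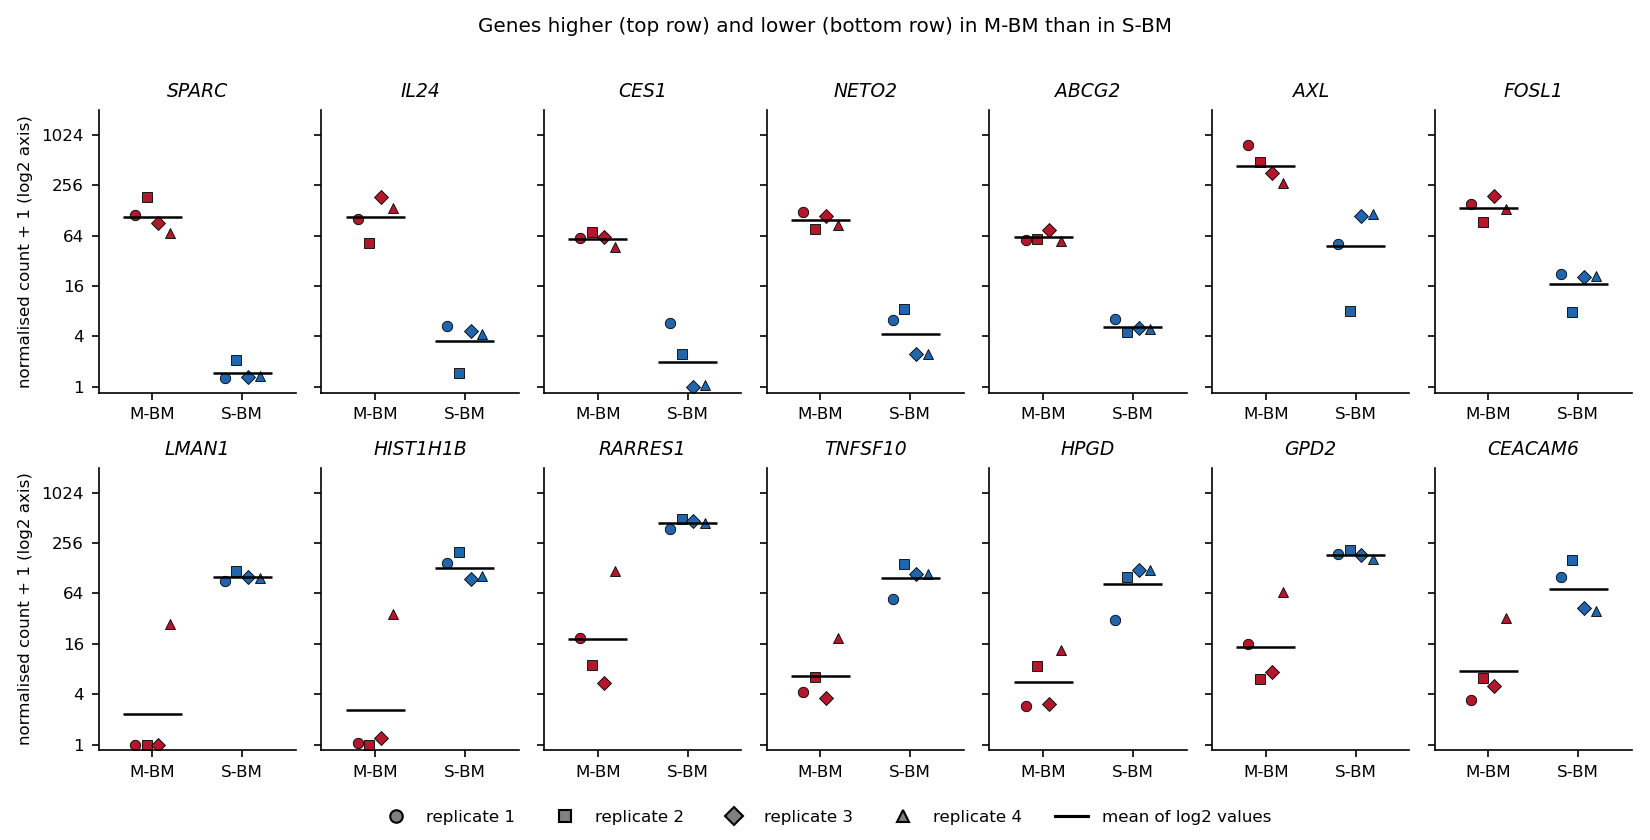
Normalised count plus 1 on a log2 axis in each library, M-BM left and S-BM right, with 1 symbol per replicate number (the labels give no pairing by number) and a line at the mean of the log2 values. The groups do not overlap in any of the 14 genes, and in the 7 lower genes the M-BM 4 triangle lies above the other M-BM libraries.

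The largest falls included cargo transport, retinoid response and secreted proteins of epithelia. LMAN1, which carries glycoproteins such as clotting factors from the endoplasmic reticulum to the Golgi (chromosome 18, 59327823 to 59359265), had no read in M-BM 1 to 3 and a normalised count of 26.8 in M-BM 4, against 89.6, 118, 99.0 and 95.8 in S-BM 1 to 4. Measured against 3 reads, M-BM 1 to 3 were at least 681-fold lower than the S-BM mean. LMAN1 was also at 0 in Lat and at 186 to 214 in the parental line. The linker histone gene HIST1H1B showed the same split within M-BM, with 0.0492, 0, 0.195 and 35.1 in M-BM 1 to 4, against 146, 199, 94.6 and 102 in S-BM 1 to 4 (log2 difference −5.65, SE 1.00, adjusted p = 0.000370, limma; −6.92 without M-BM 4). Histone genes have near-identical copies, which leaves its level uncertain. RARRES1, a retinoic acid responder (chromosome 3, 158696892 to 158732457), had 17.8, 7.91, 4.48 and 116 in M-BM 1 to 4, against 379, 495, 472 and 439 in S-BM 1 to 4 (log2 difference −4.62, SE 0.71, adjusted p = 0.000132, limma; −5.52 without M-BM 4). Another retinoic acid responder, the phospholipase RARRES3, had 11.3, 16.8, 7.10 and 38.8 in M-BM 1 to 4, against 123, 273, 196 and 212 in S-BM 1 to 4, a 11.9-fold fall (adjusted p = 1.82e-05). In each of these genes M-BM 4 held the highest M-BM value and still lay below every S-BM library.

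TNFSF10, the death ligand TRAIL (chromosome 3, 172505508 to 172523430), had 3.30, 5.33, 2.63 and 17.8 in M-BM 1 to 4, against 54.1, 143, 108 and 107 in S-BM 1 to 4 (log2 difference −3.91, SE 0.46, adjusted p = 1.74e-05, limma). HPGD, which degrades prostaglandins, had 1.87, 7.73, 2.04 and 12.4 in M-BM 1 to 4, against 30.1, 100.5, 123 and 121 in S-BM 1 to 4, a 14.7-fold fall. Its parental level of 474 to 706 lay above both groups. GPD2, the mitochondrial enzyme of the glycerol phosphate shuttle, stood at 14.7, 5.15, 6.42 and 65.0 in M-BM 1 to 4, against 191, 211, 183 and 163 in S-BM 1 to 4 (log2 difference −3.67, and −4.39 without M-BM 4). M-BM 4 was again the highest M-BM library in all 3 genes, below every S-BM library. Ceruloplasmin (CP), which oxidises iron, fell 15.3-fold (adjusted p = 0.000369; log2 difference −3.94, and −3.30 without M-BM 3), and IGFBP5, a binding protein of insulin-like growth factors, 13.7-fold (adjusted p = 0.000578). The keratin KRT6A fell 15.4-fold, the purine transporter SLC43A3 12.8-fold and the plasminogen activator PLAT 10.3-fold. All 3 were highest in S-BM 3 and S-BM 4, and without those libraries their log2 differences were −3.15, −2.88 and −2.52. KRT6A has near-identical relatives, so its level is uncertain. The mucin MUC16 averaged 30.3 ± 20.2 in M-BM and 298 ± 152 in S-BM, the adhesion protein CEACAM6 10.7 ± 13.7 in M-BM and 85.4 ± 58.2 in S-BM, and the calcium-binding S100A8 8.85 ± 9.71 in M-BM and 76.4 ± 41.9 in S-BM (SD, n = 4 each). CEACAM6 had a parental level of 549 to 778, above both groups, and its log2 difference of −3.25 was −3.94 without M-BM 4 and −4.07 without S-BM 3 and S-BM 4.

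M-BM 4 held the highest M-BM value in all 29 genes that were at least 8-fold lower, at a median of 19.7% of the S-BM mean (7.15% to 38.0%), against medians of 3.60%, 3.64% and 3.39% in the other three, M-BM 1 to 3. Among the 531 genes called at least 2-fold lower it was the M-BM library nearest S-BM in 366, and among the 351 at least 2-fold higher in 150. Without it the number at least 2-fold lower was 609 (6.46%) and the number at least 2-fold higher 401 (4.26%), more than with it. Without S-BM 3 and S-BM 4 these counts were 569 lower (6.04%) and 401 higher, and without all 3 libraries 650 lower (6.9%) and 461 higher (4.89%).

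**Figure D3:**
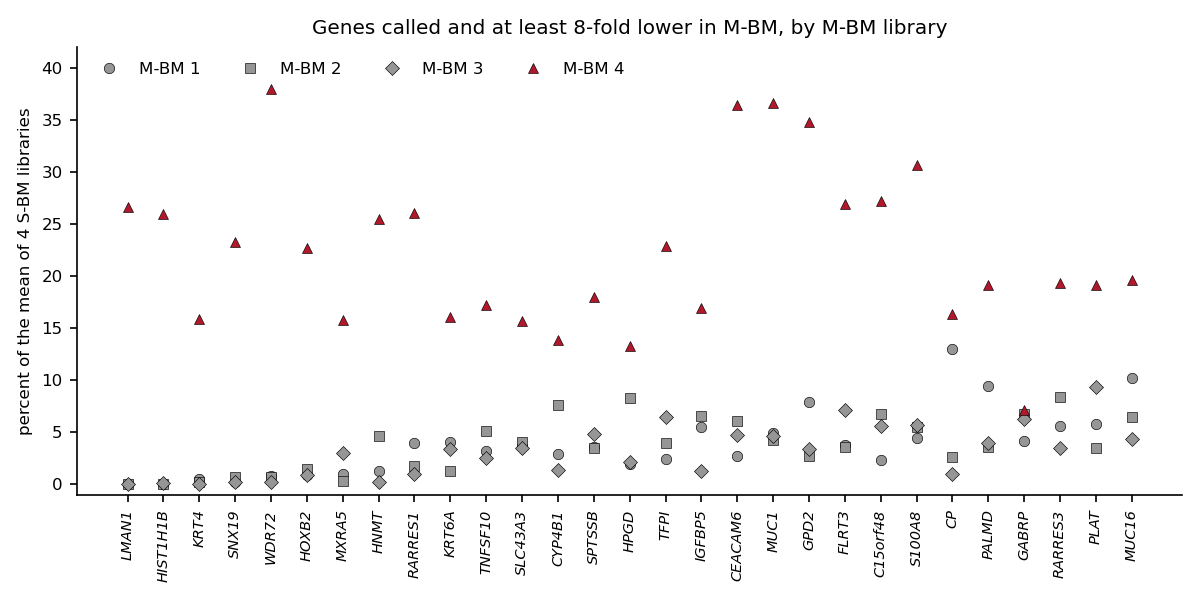
Each M-BM library as a percentage of the mean of the 4 S-BM libraries, for the 29 genes called and at least 8-fold lower in M-BM, ordered by the mean of M-BM 1 to 3. M-BM 4 (triangles) is the highest M-BM library in all 29 genes, with a median of 19.7%.

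Growth factor signalling genes moved in both directions. Receptor tyrosine kinases, which pass signals from ligands into the cell, rose in 3 of 21 tested cases (5 without S-BM 2), and 12 fell (median log2 difference −0.44, against −0.00092 over all genes). The 3 that rose were AXL, ROR1 and EPHA2, while EPHB6, EPHB2, EPHB3, EPHA1, EPHB4 and EPHA4 all fell. EPHB6 had 7.93, 4.02, 4.67 and 10.2 in M-BM 1 to 4, against 28.5, 11.9, 36.4 and 38.6 in S-BM 1 to 4 (3.75-fold, adjusted p = 0.000517, limma). EPHB2 had 34.2, 16.1, 25.01 and 36.5 in M-BM 1 to 4, against 85.9, 76.8, 94.2 and 102 in S-BM 1 to 4 (3.26-fold, adjusted p = 0.000280). Ephrin receptors bind ligands on neighbouring cells, and of the genes for those ligands EFNA5, EFNA4, EFNB2, EFNB1 and EFNA1 fell as well. Secreted growth factors went the other way, with 8 of 15 higher and 1 lower (median 0.52). BMP7, a ligand of bone morphogenetic protein receptors, had 19.7, 41.5, 61.7 and 42.4 in M-BM 1 to 4, against 0.114, 1.52, 0.375 and 0.698 in S-BM 1 to 4 (log2 difference 4.62, SE 0.36, adjusted p = 9.04e-07, limma). PDGFC averaged 164 ± 31.8 in M-BM and 49.8 ± 15.8 in S-BM and PDGFA 71.0 ± 19.4 in M-BM and 31.8 ± 5.32 in S-BM (SD, n = 4 each), 3.30-fold and 2.16-fold higher.

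Targets and feedback inhibitors of the MAPK cascade, which relays receptor signals to transcription, rose in 16 of 22 cases, and none fell (median 0.68; 17 rose without S-BM 3 and S-BM 4, and 16 without M-BM 4). Beside FOSL1 these were led by ETV1, an ETS transcription factor, at 36.9, 62.2, 53.9 and 42.2 in M-BM 1 to 4, against 9.34, 9.06, 0.975 and 1.40 in S-BM 1 to 4. Its log2 difference of 3.37 was 2.26 without S-BM 3 and S-BM 4. PHLDA1, an immediate early gene, averaged 493 ± 131 in M-BM and 176 ± 47.7 in S-BM (SD, n = 4 each; 2.79-fold, adjusted p = 2.9e-05, limma). The other members called were ETV5, ETV4, ELK3, EGR1, IER3, MYC, CCND1, EPHA2, SPRED1, SPRY4 and the phosphatases DUSP4, DUSP5 and DUSP6. AP-1 and MAF factors rose in 6 of 13 cases, and 1 fell, with MAF at 101.02 ± 36.997 in M-BM and 21.2 ± 5.38 in S-BM and MAFF at 63.3 ± 8.57 in M-BM and 17.8 ± 4.44 in S-BM (SD, n = 4 each). Of 14 KLF and SP factors 1 rose and 3 fell, below the 26.4% and 26.3% over all genes (3 rose and 1 fell without S-BM 3 and S-BM 4; 1 fell without S-BM 1 or without M-BM 3).

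Markers of luminal breast epithelium fell in 11 of 15 cases, and none rose (median −0.80). The mucin MUC1 had 2.26, 1.94, 2.14 and 16.7 in M-BM 1 to 4, against 64.3, 48.1, 33.6 and 36.3 in S-BM 1 to 4 (log2 difference −3.23, SE 0.45, adjusted p = 6.23e-05, limma; −3.86 without M-BM 4). The luminal factor SPDEF had 13.3, 13.2, 10.9 and 16.6 in M-BM 1 to 4, against 41.99, 38.5, 55.4 and 59.5 in S-BM 1 to 4, 3.42-fold lower. The surface glycoprotein CD24 had 761, 646, 615 and 1165 in M-BM 1 to 4, against 2451, 3622, 1983 and 2009 in S-BM 1 to 4, 3.16-fold lower. FOXA1, which opens chromatin for hormone receptors, averaged 58.2 ± 13.2 in M-BM and 120.4 ± 11.1 in S-BM (SD, n = 4 each), and SOX4 153 ± 52.9 in M-BM and 575 ± 181 in S-BM. SOX and FOX factors as a list fell in 5 of 12 cases (8 without S-BM 3 and S-BM 4), and the member that rose was SOX9, at 196 ± 35.5 in M-BM and 118 ± 4.04 in S-BM (adjusted p = 0.000246, limma). Keratins and other genes of basal and squamous epithelium fell in 5 of 10 cases, all keratins. The 2 that rose (0 or 1 without any one M-BM library) were the keratin KRT80 and LCN2, which is not a keratin. KRT15 was at 251, 606, 471 and 744 in M-BM 1 to 4, against 1664, 2766, 1850.2 and 1934 in S-BM 1 to 4 (4.19-fold). KRT4 was close to 0 in M-BM 1 to 3, at 0.0985, 0.0452, 0 and 2.85 in M-BM 1 to 4, against 13.7, 17.1, 20.3 and 20.6 in S-BM 1 to 4. In all of these named lower genes each M-BM library lay below each S-BM library.

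Retinoid genes, which handle or answer to vitamin A derivatives, fell in 12 of 16 cases, and RXRA was the 1 that rose (median −0.87). After RARRES1 and RARRES3 came the retinol dehydrogenase DHRS9, at 4.58, 5.92, 3.75 and 30.2 in M-BM 1 to 4, against 105, 37.3, 38.4 and 37.8 in S-BM 1 to 4. Its log2 difference of −2.52 was −3.14 without M-BM 4. NOTCH pathway genes fell in 12 of 16 cases, and RBPJ, which binds DNA for the pathway, was the 1 that rose (median −0.51). The target HES2 had 1.18, 1.40, 2.19 and 4.57 in M-BM 1 to 4, against 12.2, 24.1, 31.8 and 28.9 in S-BM 1 to 4 (7.69-fold). The receptor NOTCH3 had 16.4, 25.4, 18.1 and 26.2 in M-BM 1 to 4, against 69.7, 115, 67.0 and 74.1 in S-BM 1 to 4 (3.64-fold, adjusted p = 5.23e-06, limma). The coactivator MAML2 averaged 30.9 ± 8.21 in M-BM and 92.6 ± 12.7 in S-BM (SD, n = 4 each). Ligands JAG1 and JAG2 were among the others that fell.

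Genes of cell junctions, which hold epithelial sheets together, fell in 12 of 24 cases, and 1 rose, TJP1 (median −0.32; 13 fell and 3 rose without S-BM 3 and S-BM 4). The protocadherin PCDH7 had 11.96, 19.0, 9.29 and 30.0 in M-BM 1 to 4, against 82.8, 98.3, 84.95 and 79.2 in S-BM 1 to 4 (5.13-fold). The tight junction protein TJP3 had 3.59, 5.24, 3.02 and 8.94 in M-BM 1 to 4, against 31.4, 35.8, 18.7 and 22.4 in S-BM 1 to 4 (4.68-fold). The claudin CLDN1 had 138, 118, 154 and 213 in M-BM 1 to 4, against 348, 634, 708 and 652 in S-BM 1 to 4 (3.70-fold, adjusted p = 1.8e-05, limma). E-cadherin (CDH1) fell by less, at 499 ± 81.3 in M-BM and 767 ± 83.1 in S-BM (SD, n = 4 each; 1.54-fold, adjusted p = 0.000803). EPCAM passed no threshold (adjusted p = 0.132), but was called lower without S-BM 3 and S-BM 4 (log2 difference −0.45, adjusted p = 0.0113), without S-BM 4 alone (adjusted p = 0.0458) and without M-BM 4 (log2 difference −0.32, adjusted p = 0.0493). Vimentin (VIM), an intermediate filament of mesenchymal cells, was uneven within M-BM, at 46.2, 4.79, 31.7 and 25.2 in M-BM 1 to 4, against 12.1, 18.0, 14.9 and 15.1 in S-BM 1 to 4 (adjusted p = 0.539). The mesenchymal list rose in 4 of 11 cases, and 3 fell, near the shares over all genes.

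Integrins, the receptors for matrix, moved in both directions. ITGA6 had 647, 686, 778 and 676 in M-BM 1 to 4, against 305, 302, 239 and 251 in S-BM 1 to 4 (2.54-fold, adjusted p = 1.36e-06, limma). ITGA2 averaged 598 ± 59.9 in M-BM and 338 ± 66.4 in S-BM and ITGA5 47.2 ± 6.10 in M-BM and 27.6 ± 3.36 in S-BM (SD, n = 4 each). In all 5 of 10 rose, ITGA3 and ITGB5 with them, and ITGB8, ITGB4, ITGB1 and ITGAV fell; none of the 4 falls was called without S-BM 3 and S-BM 4. Matrix proteins rose in 8 of 22 cases, and 10 fell (9 and 6 without S-BM 3 and S-BM 4). Fibronectin (FN1) had 1834, 1546, 1379.8 and 1112 in M-BM 1 to 4, against 415, 546, 343 and 341 in S-BM 1 to 4 (log2 difference 1.84, SE 0.28, adjusted p = 0.000135, limma). The laminin chain LAMB2 had 43.9, 36.0, 27.7 and 45.6 in M-BM 1 to 4, against 123, 124, 169 and 162 in S-BM 1 to 4 (3.73-fold lower). Among proteases and their inhibitors 7 of 32 rose and 14 fell (median −0.26). ADAM12, a membrane metalloprotease, was at 31.8, 27.5, 21.9 and 17.8 in M-BM 1 to 4, against 0, 0.152, 0.450 and 0.582 in S-BM 1 to 4 (log2 difference 4.30, SE 0.20, adjusted p = 6.57e-09, limma). The serine protease TMPRSS4 was at 5.47, 13.2, 5.74 and 21.3 in M-BM 1 to 4, against 66.3, 107, 64.03 and 64.9 in S-BM 1 to 4 (6.89-fold lower).

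Axon guidance and neural adhesion genes, which steer growing nerve fibres and are used by carcinoma cells too, fell in 14 of 22 cases, and 3 rose (median −0.50; 10 fell without S-BM 3 and S-BM 4). The semaphorin SEMA3F had 6.60, 9.94, 4.91 and 12.4 in M-BM 1 to 4, against 44.7, 60.8, 60.1 and 69.1 in S-BM 1 to 4 (6.55-fold). SEMA3E averaged 11.9 ± 3.78 in M-BM and 40.7 ± 10.4 in S-BM (SD, n = 4 each). The neural adhesion protein CNTN1 had 6.01, 26.3, 42.5 and 52.4 in M-BM 1 to 4, against 60.6, 167, 98.9 and 105 in S-BM 1 to 4. The log2 difference of −1.99 for CNTN1 was −1.36 without M-BM 1. L1CAM, which carcinoma cells use to spread along vessels, did not pass the test (log2 difference 0.55, SE 0.31, adjusted p = 0.149, limma), but was called higher without M-BM 4 (log2 difference 0.77, adjusted p = 0.0457).

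Interferon-stimulated genes fell in 21 of 28 cases, and 1 rose, HERC5 (median −0.73; 19 fell and 2 rose without S-BM 3 and S-BM 4). These genes are switched on by a transcription factor complex that includes STAT2 and IRF9 and binds a sequence called the interferon-stimulated response element. HERC5, a ubiquitin-like ligase for the modifier ISG15, had 37.9, 40.8, 48.5 and 37.6 in M-BM 1 to 4, against 1.14, 2.78, 0.675 and 1.11 in S-BM 1 to 4 (log2 difference 4.18, SE 0.21, adjusted p = 1.57e-08, limma). SAMD9L, which restrains growth and viruses, had 5.96, 4.65, 5.55 and 12.1 in M-BM 1 to 4, against 25.9, 28.8, 49.9 and 50.3 in S-BM 1 to 4 (4.99-fold lower). The guanylate-binding protein GBP2 had 8.22, 9.17, 8.86 and 13.6 in M-BM 1 to 4, against 28.9, 50.1, 50.9 and 50.2 in S-BM 1 to 4 (4.16-fold lower). STAT2 and IRF9 themselves were among the genes that fell. IFITM1, IFITM2 and IFITM3 fell as well, but they are close copies of each other and their single levels are uncertain.

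Promoter windows of 300 bases (250 before to 50 after the start; RefSeq, GRCh38.p14) were searched on both strands for the core of that element, which is a pair of TTTC runs with any 2 bases between, a search chosen with the results known. It was found in 10 of the 17 interferon-stimulated genes that fell and have a window, in 3 of 5 that were not called and in HERC5, against 2.69% of the 7765 windows of tested genes and 3.57% of all 35116 windows. Matches on both strands and overlapping matches count once per window. The window of HERC5, the gene that rose, and those of 3 that fell are shown on the strand of the gene, with the matched letters in capitals. HERC5 lies at chr4:88456869-88457168 (+), IFITM1 at chr11:313790-314089 (+), SAMD9 at chr7:93117930-93118229 (−) and GBP1 at chr1:89065159-89065458 (−).
HERC5: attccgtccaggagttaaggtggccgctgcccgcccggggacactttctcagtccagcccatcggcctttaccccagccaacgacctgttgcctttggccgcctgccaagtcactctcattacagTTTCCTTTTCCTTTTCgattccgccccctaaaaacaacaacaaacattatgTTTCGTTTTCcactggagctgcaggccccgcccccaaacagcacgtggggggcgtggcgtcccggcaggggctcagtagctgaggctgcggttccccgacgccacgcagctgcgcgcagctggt
IFITM1: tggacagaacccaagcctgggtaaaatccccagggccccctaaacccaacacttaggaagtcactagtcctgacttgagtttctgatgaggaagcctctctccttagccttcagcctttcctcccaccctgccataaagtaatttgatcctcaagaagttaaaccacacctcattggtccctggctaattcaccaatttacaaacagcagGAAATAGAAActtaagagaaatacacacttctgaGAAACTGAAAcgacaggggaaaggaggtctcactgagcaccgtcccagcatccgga
SAMD9: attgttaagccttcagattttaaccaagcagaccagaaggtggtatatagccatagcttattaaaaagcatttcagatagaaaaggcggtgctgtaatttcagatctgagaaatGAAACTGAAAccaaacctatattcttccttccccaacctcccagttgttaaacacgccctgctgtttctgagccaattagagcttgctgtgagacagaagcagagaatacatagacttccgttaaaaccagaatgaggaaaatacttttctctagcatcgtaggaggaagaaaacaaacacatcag
GBP1: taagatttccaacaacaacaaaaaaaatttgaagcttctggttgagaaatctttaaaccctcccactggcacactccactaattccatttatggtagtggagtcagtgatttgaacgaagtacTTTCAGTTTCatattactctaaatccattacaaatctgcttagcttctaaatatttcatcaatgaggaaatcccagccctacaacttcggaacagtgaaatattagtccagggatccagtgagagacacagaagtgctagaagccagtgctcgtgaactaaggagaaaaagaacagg
The HERC5 window held 3 matches, the first pair overlapping, although the gene was 18.2-fold higher in M-BM. IFITM1 held 2 and was 2.49-fold lower, while SAMD9 and GBP1 held 1 each and were 2.42-fold and 2.41-fold lower (adjusted p = 0.00126, 0.000159 and 4.5e-05, limma). A match describes the letters of the window and not the binding of a factor.

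Genes of class I antigen presentation, which shows peptides to T cells, fell in 12 of 16 cases, and 1 rose (median −0.73). Tapasin (TAPBP), which loads peptides, had 222, 207, 208 and 251 in M-BM 1 to 4, against 518, 479.6, 481 and 539 in S-BM 1 to 4 (2.27-fold). The immunoproteasome subunit PSMB8 averaged 88.2 ± 9.71 in M-BM and 179 ± 12.2 in S-BM (SD, n = 4 each; 2.02-fold, adjusted p = 5.62e-06, limma). Ligands of NK cells and checkpoints fell in 5 of 11 cases, and 1 rose (3 fell without S-BM 3 and S-BM 4). The checkpoint ligand VTCN1 had 6.84, 14.6, 13.2 and 23.1 in M-BM 1 to 4, against 54.5, 119.6, 62.5 and 65.9 in S-BM 1 to 4 (5.10-fold lower). CADM1, a ligand of the NK-cell receptor CRTAM, had 26.4, 20.4, 15.7 and 12.5 in M-BM 1 to 4, against 1.54, 2.33, 0.450 and 0.466 in S-BM 1 to 4 (9.27-fold higher). CD274 (PD-L1) did not pass (log2 difference −0.50, SE 0.50, adjusted p = 0.423, limma). Of cytokines, 3 of 10 rose and 5 fell, with LIF at 56.8 ± 11.2 in M-BM and 20.4 ± 5.02 in S-BM (SD, n = 4 each; 2.72-fold higher) next to IL24. NF-kB pathway genes rose in 5 of 20 cases, and 7 fell, near the shares over all genes. The adaptor TRAF2 was 2.28-fold higher, while the regulator NFKBIZ was 5.21-fold lower and the kinase IRAK2 2.99-fold lower. Death receptor and apoptosis genes fell in 11 of 25 cases, and 6 rose, and after TRAIL the initiator caspase CASP10 fell most, at 20.1, 34.2, 25.01 and 42.1 in M-BM 1 to 4, against 87.2, 95.7, 115 and 119 in S-BM 1 to 4.

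Lipid genes differed by list. Cholesterol synthesis and sterol control genes fell in 13 of 24 cases, and none rose (2 rose without S-BM 2; median −0.39). The cyclase LSS averaged 33.1 ± 10.4 in M-BM and 83.3 ± 20.1 in S-BM and DHCR7 41.5 ± 7.77 in M-BM and 100.4 ± 17.3 in S-BM (SD, n = 4 each). Fatty acid synthesis and desaturation genes rose in 6 of 19 cases, and 6 fell (median −0.02), near the 26.4% and 26.3% over all genes. The desaturase FADS1, which makes polyunsaturated fatty acids, had 48.0, 59.0, 48.4 and 36.6 in M-BM 1 to 4, against 1.99, 1.87, 3.30 and 3.67 in S-BM 1 to 4 (log2 difference 3.74, SE 0.17, adjusted p = 6.59e-09, limma). SCD and SCD5, which make monounsaturated ones, went the other way. SCD had 435, 252, 296 and 526 in M-BM 1 to 4, against 1163, 1689, 1294 and 1337 in S-BM 1 to 4 (3.75-fold). SCD5 had 14.2, 8.72, 9.97 and 24.2 in M-BM 1 to 4, against 58.8, 58.2, 91.3 and 88.6 in S-BM 1 to 4 (5.17-fold). Fatty acid oxidation genes fell in 11 of 22 cases, and 2 rose (median −0.41). The carnitine acyltransferases CROT and CRAT were 2.25-fold and 2.17-fold lower and ETFDH, which passes electrons on to ubiquinone, 1.99-fold higher. CPT1A, the gate of mitochondrial import, rose narrowly (1.29-fold, adjusted p = 0.0449, limma), and 8 of the 20 alternatives ended the call. Among them, leaving out 1 library gave an adjusted p of 0.143 without M-BM 2, 0.0728 without M-BM 3, 0.111 without S-BM 1 and 0.125 without S-BM 2.

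Genes of the tricarboxylic acid cycle and of steps that feed or draw on it fell in 11 of 29 cases, and 3 rose (median −0.16). The citrate lyase ACLY, which is outside the cycle itself, had 149.6, 116, 119.6 and 144 in M-BM 1 to 4, against 226, 345, 236 and 244 in S-BM 1 to 4 (1.96-fold lower). The ligase subunit SUCLG2 averaged 36.0 ± 5.63 in M-BM and 62.2 ± 8.15 in S-BM, and the dehydrogenase subunit IDH3A, which rose, 102 ± 7.59 in M-BM and 59.2 ± 3.22 in S-BM (SD, n = 4 each). Near the shares over all genes, glutamine and serine genes rose in 9 of 26 cases (5 without M-BM 3), and 6 fell. Among them the transaminase GPT2 was 2.43-fold higher and the glutamate transporter SLC1A3 was 3.86-fold lower at 72.5, 41.0, 32.0 and 79.5 in M-BM 1 to 4, against 183, 325, 173 and 173 in S-BM 1 to 4. SLC1A3 is also listed as an astrocyte marker and supplied most of that list's sum, which was 33.5 to 81.0 in M-BM and 174 to 328 in S-BM. The urea cycle enzyme ASS1 was 2.27-fold lower (adjusted p = 0.0109, limma), which was lost on dropping S-BM 3 and S-BM 4, at 0.0741. Glycolysis and lactate genes stayed near or under the background in both directions, with 5 higher (2 without S-BM 2 or without M-BM 3) and 2 lower of 23. LDHA (adjusted p = 0.216) and the lactate transporters SLC16A1 (0.152) and SLC16A3 (0.757) did not pass. LDHA did, in the higher direction, without S-BM 3 and S-BM 4 (log2 difference 0.38, adjusted p = 0.0292), and SLC16A1 in the lower direction without S-BM 2 (log2 difference −0.43, adjusted p = 0.0473). DNM1L, the GTPase of mitochondrial fission, had 137, 142, 141 and 131 in M-BM 1 to 4, against 64.3, 63.0, 73.0 and 65.7 in S-BM 1 to 4 (2.06-fold higher, adjusted p = 9.13e-07). Iron handling genes rose in 4 of 19 cases (2 without S-BM 3 or without M-BM 2), and 6 fell, near the shares over all genes. The reductase STEAP4 was 3.31-fold lower beside CP.

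Targets of ATF4, the transcription factor of the integrated stress response, rose in 20 of 31 cases, and 3 fell (median 0.45; 16 rose without S-BM 3 and S-BM 4). The cystine importer SLC7A11 had 498, 499, 687 and 605 in M-BM 1 to 4, against 194, 129.9, 98.0 and 102 in S-BM 1 to 4 (log2 difference 2.16, SE 0.21, adjusted p = 4.97e-06, limma). The secreted hormone STC2 had 351, 249.6, 442 and 316 in M-BM 1 to 4, against 80.8, 47.0, 102 and 107 in S-BM 1 to 4 (4.11-fold). The stress factor DDIT3 had 47.1, 54.1, 55.8 and 49.5 in M-BM 1 to 4, against 23.1, 13.8, 17.5 and 13.9 in S-BM 1 to 4 (2.97-fold). DDIT4, an inhibitor of mTOR signalling, averaged 468 ± 108 in M-BM and 193 ± 36.9 in S-BM (SD, n = 4 each). ATF4 itself was among the genes that rose (1.76-fold, adjusted p = 1.11e-05, limma). Cytosolic aminoacyl-tRNA synthetases, which charge tRNAs with amino acids, rose in 14 of 20 cases, and 2 fell, QARS and VARS (median 0.43). FARSB averaged 131 ± 12.3 in M-BM and 60.7 ± 12.7 in S-BM, EPRS 1004 ± 86.6 in M-BM and 568 ± 74.1 in S-BM and QARS 76.9 ± 8.96 in M-BM and 169 ± 18.4 in S-BM (SD, n = 4 each). NRF2 and antioxidant genes rose in 12 of 28 cases, and 3 fell, but in 7 and 4 without S-BM 3 and S-BM 4. The export pump ABCC2 had 24.3, 49.8, 65.2 and 48.5 in M-BM 1 to 4, against 7.41, 8.25, 2.70 and 3.78 in S-BM 1 to 4 (7.43-fold). OSGIN1 averaged 48.2 ± 14.1 in M-BM and 12.3 ± 2.67 in S-BM and HMOX1 13.1 ± 1.18 in M-BM and 6.06 ± 1.12 in S-BM (SD, n = 4 each). Endoplasmic reticulum chaperones were near the background, with 8 higher and 9 lower of 31 (4 and 9 without S-BM 3 and S-BM 4); CRELD2 was 2.23-fold higher. ABC transporters too were at the shares over all genes, 6 higher and 6 lower of 22, with ABCG2 and ABCC2 ahead of ABCA5 (2.89-fold).

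The ATF4 site searched was the composite core TGATGNAA, on both strands. It lay in 4 of the 17 ATF4 targets that rose and have a window (ATF3, CHAC1, ASNS and SLC3A2), in 1 of 6 not called and in none of 2 that fell, against 1.61% of windows of tested genes and 3.62% of all windows. The windows of SLC3A2, the partner chain of SLC7A11 in the cystine importer (chr11:62881449-62881748, +), and CHAC1, which degrades glutathione (chr15:40953221-40953520, +), show where it lies in 2 genes of the same pathway.
SLC3A2: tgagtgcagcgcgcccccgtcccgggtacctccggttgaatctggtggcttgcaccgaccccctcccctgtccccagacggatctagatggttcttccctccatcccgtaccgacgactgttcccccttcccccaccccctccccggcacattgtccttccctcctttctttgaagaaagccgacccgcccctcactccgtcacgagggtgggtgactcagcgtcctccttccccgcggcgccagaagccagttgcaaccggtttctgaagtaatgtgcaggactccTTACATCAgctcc
CHAC1: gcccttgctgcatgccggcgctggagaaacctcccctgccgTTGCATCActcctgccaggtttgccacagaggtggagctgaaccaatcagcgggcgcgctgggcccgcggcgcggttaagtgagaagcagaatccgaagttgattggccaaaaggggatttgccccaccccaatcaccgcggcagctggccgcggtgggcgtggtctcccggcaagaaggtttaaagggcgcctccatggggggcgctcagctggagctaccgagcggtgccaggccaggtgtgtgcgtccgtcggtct
SLC3A2 was 2.02-fold higher in M-BM (adjusted p = 0.000122, limma) and CHAC1 1.49-fold (adjusted p = 0.00753), with the match beginning at position 37 in SLC3A2 and −209 in CHAC1, counted from the transcription start.

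MYC targets and ribosome biogenesis genes rose in 28 of 38 cases, and 1 fell (median 0.44; 27 and 1 without S-BM 3 and S-BM 4). LYAR averaged 68.1 ± 9.32 in M-BM and 29.3 ± 6.80 in S-BM, the polyamine enzyme ODC1 162 ± 13.7 in M-BM and 75.3 ± 19.0 in S-BM and the polymerase I subunit POLR1E 84.0 ± 10.4 in M-BM and 42.8 ± 7.39 in S-BM (SD, n = 4 each). MYC was 1.58-fold higher, at 309, 249, 263 and 220.0 in M-BM 1 to 4, against 163, 118, 193 and 193 in S-BM 1 to 4 (adjusted p = 0.00254, limma). DNA replication genes rose in 19 of 39 cases, and 5 fell (3 without M-BM 4; median 0.27), with the helicase subunit MCM2 at 109, 75.1, 84.0 and 63.6 in M-BM 1 to 4, against 31.4, 28.7, 28.2 and 30.6 in S-BM 1 to 4 (2.69-fold). The origin subunit ORC6 averaged 42.4 ± 5.07 in M-BM and 17.9 ± 1.68 in S-BM (SD, n = 4 each). Mitosis genes rose in 20 of 40 cases, and 1 fell, and in 13 and 4 without S-BM 3 and S-BM 4. Cyclin CCNA2 had 218, 225, 221 and 210.4 in M-BM 1 to 4, against 118, 118, 104 and 103 in S-BM 1 to 4 (1.97-fold). MKI67, the usual marker of dividing cells, did not pass (log2 difference −0.27, SE 0.13, adjusted p = 0.0999, limma) and was called lower without S-BM 3 and S-BM 4 (log2 difference −0.47, adjusted p = 0.0183) and without S-BM 3 alone (adjusted p = 0.0491). Inhibitors of the cell cycle divided, 9 higher and 8 lower of 23 (5 lower without M-BM 1), and CDKN2B was 3.28-fold lower and CCNG2 2.29-fold lower. Of replication-dependent histones 4 of 17 rose and 2 fell, below the 26.4% and 26.3% over all genes (7 and 1 without M-BM 4, where the shares were 25.1% and 25.2%).

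The sizes of the differences in the HER2 amplicon, the segment amplified with ERBB2, depended on S-BM 3 and S-BM 4. Its members rose in 6 of 12 cases and none fell (median 1.35), but without those libraries 5 rose, 2 fell and the median was 0.20. Without S-BM 1, 10 rose, and without S-BM 2, 11. With edgeR 4 rose (median 0.68): STARD3 and MIEN1 were not called by edgeR (adjusted p = 0.129 and 0.0599) or DESeq2 (0.157 and 0.0695). ERBB2 (chromosome 17, 39688094 to 39728658) had 2801, 4184, 2989 and 2996 in M-BM 1 to 4, against 4109, 4642, 353 and 367 in S-BM 1 to 4. It was not called (log2 difference 1.35, SE 0.69, adjusted p = 0.117, limma), and the direction turned on dropping S-BM 3 and S-BM 4 (−0.45, adjusted p = 0.0471). It was called higher without S-BM 1 (1.92, adjusted p = 0.0286) and without S-BM 2 (1.98, adjusted p = 0.0183), and its difference was 0.74 without S-BM 3 and 0.76 without S-BM 4, where it was not called. GRB7, its adaptor and neighbour, had 1988, 4287, 3175 and 2417 in M-BM 1 to 4, against 1468, 1226, 159 and 165 in S-BM 1 to 4. It stayed called, with a log2 difference of 2.61 that was 1.08 without that pair. STARD3 had 737, 1017, 914 and 748 in M-BM 1 to 4, against 727, 638, 49.2 and 57.0 in S-BM 1 to 4 (log2 difference 2.14; 0.31 and adjusted p = 0.0963 without the pair). The log2 differences of MIEN1 with and without the pair were 2.07 and 0.51.

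Other calls were lost on leaving out libraries as well. Leaving out S-BM 3 and S-BM 4 makes the S-BM group smaller, so a lost call can also come from fewer libraries. Of 4965 calls 1136 were lost without S-BM 3 and S-BM 4 and 392 without M-BM 4. Among the largest of these, in rank order, were STARD3, NGFRAP1, SERPINA3 and S100P among the higher genes, and PDCD1LG2, AGR2, SYT8 and UPRT among the lower ones. SERPINA3, a protease inhibitor, had 39.4, 97.3, 82.6 and 73.3 in M-BM 1 to 4, against 45.9, 65.7, 8.85 and 8.21 in S-BM 1 to 4, with S-BM 1 and S-BM 2 inside the range of M-BM (log2 difference 1.61; 0.33 without S-BM 3 and S-BM 4). S100P had 167, 98.6, 119 and 131 in M-BM 1 to 4, against 192, 47.0, 21.3 and 21.2 in S-BM 1 to 4, and S-BM 1 lay above every M-BM library (log2 difference 1.46; 0.41 without S-BM 3 and S-BM 4, and 1.45 with adjusted p = 0.0661 without M-BM 4). PDCD1LG2, the checkpoint ligand PD-L2, had 15.3, 1.85, 4.04 and 10.8 in M-BM 1 to 4, against 21.6, 8.70, 30.2 and 28.0 in S-BM 1 to 4. AGR2, a secretory protein of luminal cells, had 9.01, 29.2, 42.4 and 51.9 in M-BM 1 to 4, against 70.6, 67.6, 86.5 and 79.3 in S-BM 1 to 4 (adjusted p = 0.192 and 0.0554 on dropping S-BM 3 and S-BM 4). The log2 difference of AGR2 was −1.41 with all libraries and −1.28 without S-BM 3 and S-BM 4, and that of UPRT −1.29 and −1.11. Of the 20 alternatives, 12 ended the call of S100P, 8 that of SERPINA3 and 6 that of PDCD1LG2. For AGR2 and UPRT it was 1 each, the fit without S-BM 3 and S-BM 4.

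TGF-beta genes rose in 3 of 23 cases (5 without S-BM 3 and S-BM 4), and 9 fell, with the pseudoreceptor BAMBI 3.61-fold and the receptor BMPR2 2.40-fold lower. WNT genes rose in 2 of 17 cases (1 without S-BM 1 or without any of M-BM 1 to 3), and 6 fell, against 26.4% and 26.3% over all genes. The inhibitor DKK1 was 1.88-fold lower (adjusted p = 0.00280, limma), which was lost on dropping S-BM 3 and S-BM 4, at 0.0506. YAP and TEAD genes rose and fell in 6 and 6 of 24 cases, the shares over all genes, with the cofactor VGLL1 5.87-fold and TEAD2 2.81-fold lower. Hypoxia genes rose in 8 of 23 cases, and 6 fell, near the shares over all genes. Adrenomedullin (ADM) was 1.93-fold higher and the hydroxylase EGLN3 3.21-fold lower. S100 and annexin genes rose in 7 of 16 cases (4 without S-BM 2 or without M-BM 3), and 4 fell, and S100A9, the partner of S100A8, was 3.30-fold lower. A single ERBB ligand of the 10 listed passed the filter, and it was not called.

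**Figure D4:**
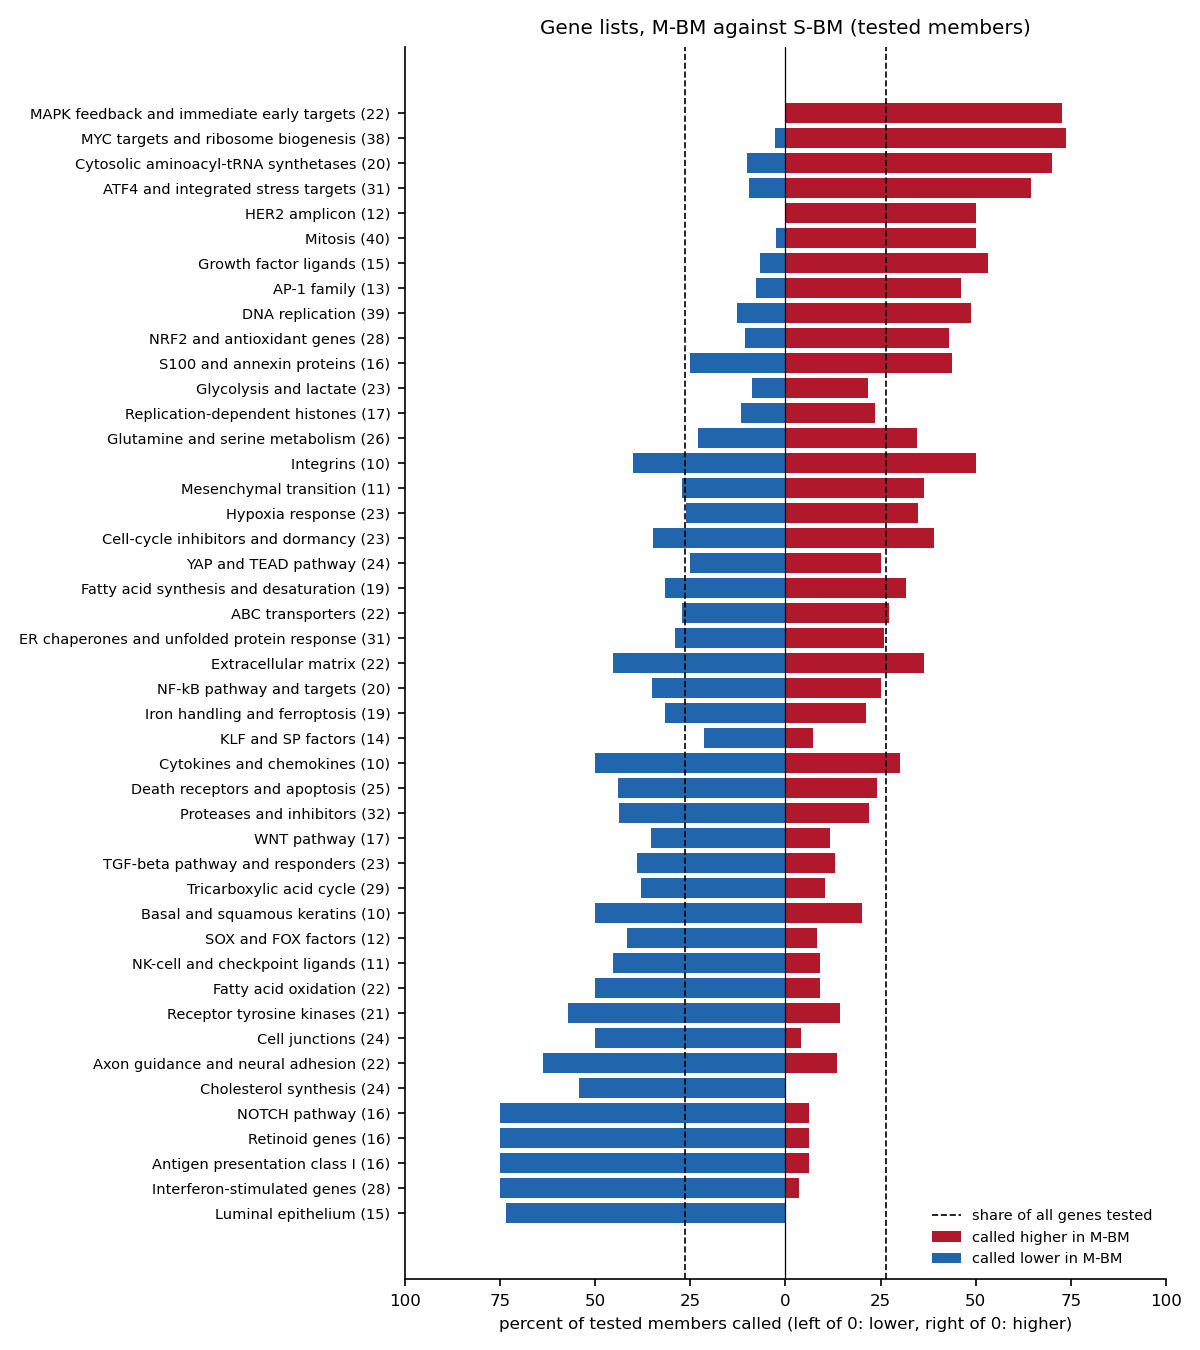
Percent of tested members of each list with at least 10 tested members (number in brackets) that were called higher in M-BM (right of 0) or lower (left of 0), ordered by the balance of the 2; dashed lines mark the 26.4% and 26.3% over all genes tested. MAPK targets, MYC targets, tRNA synthetases and ATF4 targets stand at the top, and luminal, interferon, antigen presentation, retinoid and NOTCH genes at the bottom.

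The calls were not spread evenly over the chromosomes. Cancer genomes gain and lose chromosome arms, and genes on a gained or lost segment tend to change together by small steps; copy number was not tested. Of the 9327 tested genes with a position, those of chromosome 4 stood out: 49.9% of its 351 tested genes were higher and 16.8% lower (median log2 difference 0.32). On chromosome 20, 44.0% of its 266 tested genes were higher and 15.4% lower (median 0.23). On chromosome 9, 41.3% of its 397 tested genes were higher and 15.4% lower (median 0.23). The balance was the reverse on chromosome 7, where 11.9% of its 438 tested genes were higher and 45.9% lower (median −0.26). On chromosome 3, 12.3% of its 521 tested genes were higher and 42.6% lower (median −0.21). On chromosome 21, 12.1% of its 91 tested genes were higher and 44.0% lower (median −0.28). Chromosomes 1 and 2 were near even, with medians of 0.01 and −0.01. Without S-BM 3 and S-BM 4 the medians were 0.26 for chromosome 4, 0.30 for chromosome 20, 0.12 for chromosome 9, −0.30 for chromosome 7, −0.21 for chromosome 3 and −0.18 for chromosome 21. Without M-BM 4 they were 0.31, 0.28, 0.24, −0.27, −0.22 and −0.31 in the same order.

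A running median over 15 neighbouring genes, described without a test, reached at least 0.5 in either direction over at least 8 consecutive windows in 37 blocks, 26 higher and 11 lower, which held 636 genes (6.82% of those with a position). The block with the most genes lay near the end of the short arm of chromosome 4, CTBP1 to LCORL (1211445 to 18021875, GRCh38), where 43 of 53 genes were higher and none lower (median 0.72; 0.48 without S-BM 3 and S-BM 4). On the long arm a block from NUDT9 to SMARCAD1 (87422573 to 94291292) held ABCG2 and HERC5; 9 of 11 genes were higher and every member had a positive difference (median 0.81, highest 4.18). A cluster of zinc finger genes on chromosome 19, ZNF480 to ZNF845 (52297169 to 53356906), had the largest block median, 1.62, and 9 of 10 genes were higher. Zinc finger genes of such a cluster are similar in sequence, so their single levels are uncertain. Near the end of chromosome 22, CERK to SBF1 (46684410 to 50475035), the median was 1.16, and 11 of 12 genes were higher. On the same chromosome LZTR1 to CABIN1 (20982297 to 24178628) had a median of −0.66, and 15 of 18 genes were lower.

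Lower blocks included 3p, UQCRC1 to HYAL2 (48599002 to 50322745), where 27 of 31 genes were lower (median −0.67). LAMB2, SEMA3F and the receptor MST1R, which fell with their lists above, lie in it. On chromosome 7, TAF6 to ZNHIT1 (100107070 to 101224190), 18 of 22 genes were lower (median −0.60). On chromosome 6, NELFE to BRD2 (31952087 to 32981505), 12 of 14 genes were lower (median −0.90), and this stretch holds the antigen presentation genes TAP1, TAP2, PSMB8 and PSMB9. On the short arm of chromosome 9, GLIS3 to NFIB (3824127 to 14532077), 12 of 20 genes were lower (median −0.68). The block around ERBB2, MED1 to WIPF2 on chromosome 17, had a median of 0.90 that was 0.40 without S-BM 3 and S-BM 4. The protocadherin gamma genes on chromosome 5, PCDHGA1 to PCDHGC5, were lower in 22 of 22 cases, but they share their last exons and cannot be counted as separate genes.

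Levels in Lat, and in the parental line from a separate table scaled by the median ratio (1.02), were set beside these stretches without a test; all differences share the S-BM libraries. In the block near the end of chromosome 4 the median log2 difference from S-BM was 0.72 for M-BM, 0.74 for Lat and 0.20 for Pa. Near the end of chromosome 22 it was 1.16 for M-BM, 1.23 for Lat and −0.02 for Pa. In the 3p block it was −0.67 for M-BM, −0.81 for Lat and −0.17 for Pa, and on 12p, DERA to FGD4, 0.62 for M-BM, 0.65 for Lat and −0.10 for Pa. In 31 of the 37 blocks the parental median lay nearer to S-BM than to M-BM. The blocks were chosen by the difference between M-BM and S-BM. No share was taken outside them, so this count has no background to be set against.

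**Figure D5:**
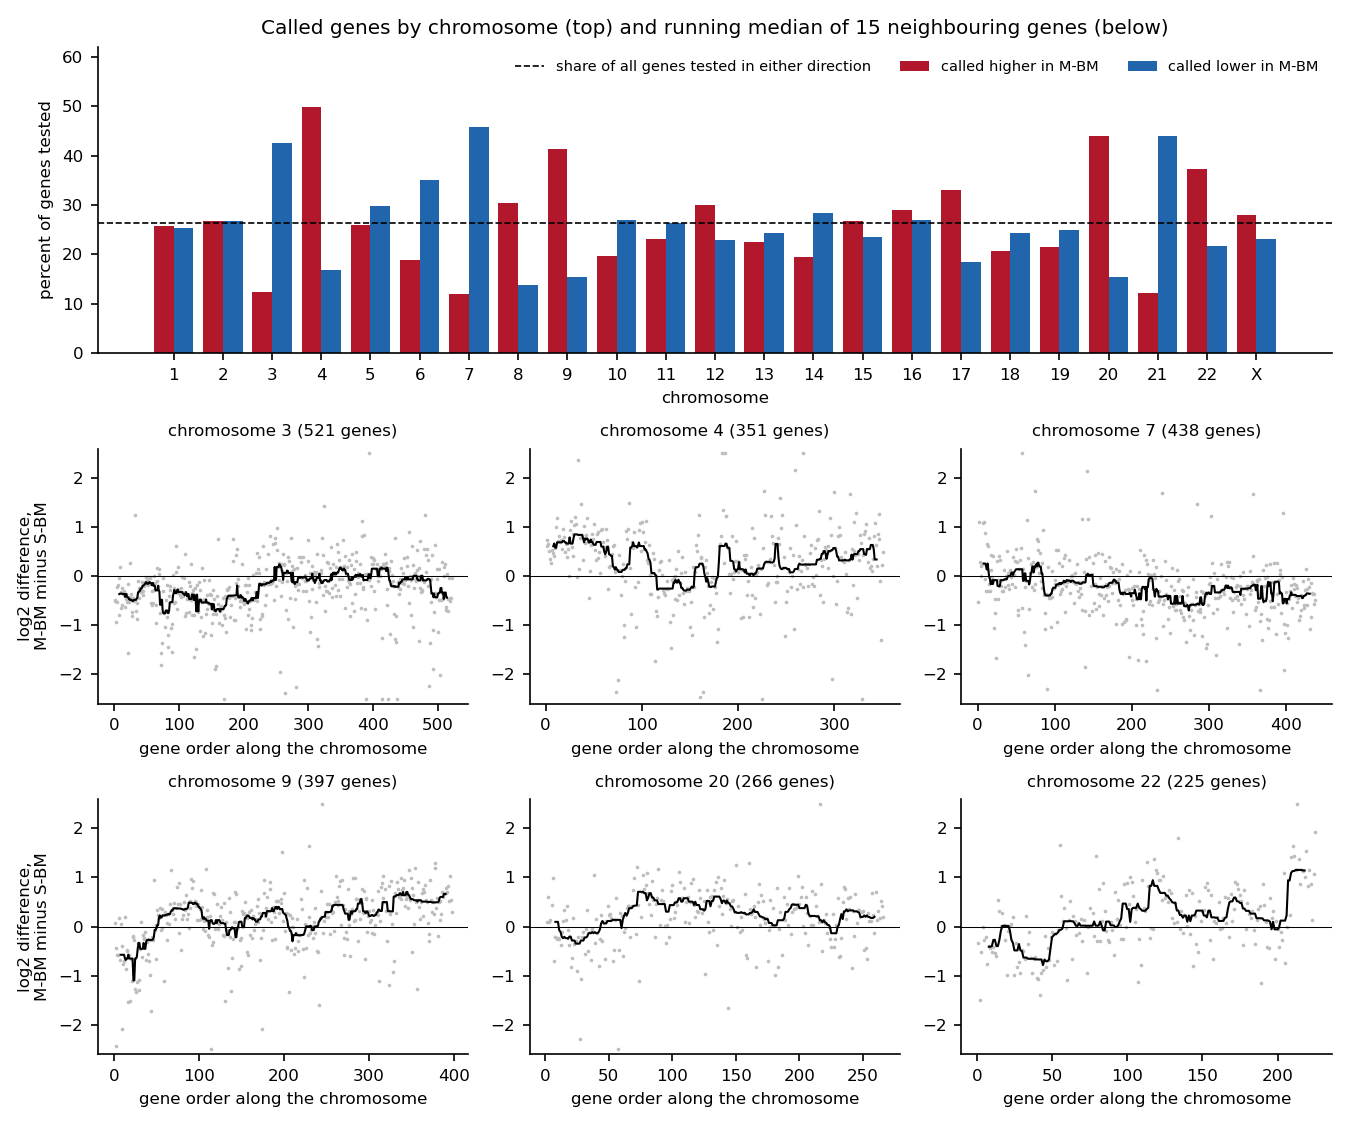
Top: percent of tested genes called higher or lower in M-BM on each chromosome, with the share over all genes dashed. Below: log2 difference (M-BM minus S-BM) of each gene in chromosomal order on 6 chromosomes, drawn at the edge where beyond 2.5, with the running median of 15 genes as a line; stretches of chromosome 4, 9, 20 and 22 run above 0, and stretches of 3, 7 and 9 below it.

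Between M-BM and Lat, 11 of 9422 genes passed the same test (0.117%), in a contrast that shares its M-BM libraries with the one above. SPARC was among them, at 113, 186, 89.0 and 67.2 in M-BM 1 to 4 against 3.03, 2.22, 41.9 and 3.07 in Lat 1 to 4 (log2 difference 3.96, adjusted p = 0.0295, limma). So was the transcription factor KLF13, at 29.9, 26.6, 26.9 and 31.8 in M-BM against 4.62, 4.15, 10.9 and 3.49 in Lat and 49.8, 53.0, 71.0 and 71.8 in S-BM. Of the 15 genes with the largest rises between M-BM and S-BM, SPARC was the 1 called above Lat, and of the 15 with the largest falls none was called below it at the adjusted threshold. Genes were filtered on M-BM and S-BM libraries, so those read in Lat alone were not tested. A gene not called can still differ. IL1RAPL1 was higher in M-BM without overlap, with 18.6, 18.3, 13.9 and 19.9 in Lat 1 to 4. IL24 was lower without overlap, with 268, 264, 489 and 196 in Lat 1 to 4 (adjusted p = 0.169 and 0.235, limma).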

How the data were processed

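RNA-seq of HCC1954-derived cells was deposited as normalised values per gene (total RNA, an unstranded TruSeq kit). Bowtie 0.12.2 and GRCh38 are named per the submitters' processing notes; no source used here gives the counter, annotation or normalization. Without strand, overlapping genes on opposite strands cannot be told apart. The deposited signal values equal read counts divided by a factor per library, since 100% came out whole within 0.05 reads. Genes with a value of at least 10 in at least 4 of 8 libraries were tested with limma 3.58.1 (R 4.3.3, trended variance) on log2(value + 1). The 4 M-BM, 4 Lat and 4 S-BM libraries shared one estimate of the spread (9 residual degrees of freedom), with Benjamini-Hochberg adjustment over 9422 genes and a threshold of 0.05. edgeR 4.0.16 on the recovered reads called 4978 genes; DESeq2 1.42.0 was another alternative. The procedure was tested on simulated data. Members, gene lists and motifs were chosen with earlier results of these data known.

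Named genes are, in each direction, the 15 largest called changes with no overlap between groups, a mean in the higher group at or above the median, and the call kept without M-BM 4 and without S-BM 3 and S-BM 4; up to 3 called members per list with a mean of at least 10 in the higher group; the 6 largest calls in each direction lost in those fits; and a fixed set. Fewer are printed. Some genes the rule names are not reported here. Other genes appear where a list's called members are enumerated or a motif match is shown. Positions, for 9327 genes, and promoter windows are from RefSeq, GRCh38.p14, matched by symbol or synonym; 27 names altered to dates were left unmatched. Alternatives were other pseudocounts, filters, scalings, tools, a replicate block and leaving out libraries. The 3 parental libraries stand in a separate table and entered no test.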

Additional observations from a re-analysis of the deposited data

Results flagged for a closer look

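For 142 genes named by the rule and in the text, the 4 libraries of each group were examined for one library far from the other 3, its gap to the nearest, as a share of the group's range, being above Dixon's critical value. Of 284 groups, 38 met this; chance flags about 5% of groups. Of the libraries singled out, S-BM 2 was flagged 14 times, M-BM 4 11 times and S-BM 1 7 times. M-BM 1 stood below its group with normalised counts of 169.6 for MKI67. M-BM 2 stood above its group with normalised counts of 12.7 for SYT8 and 4184 for ERBB2. M-BM 3 stood above its group with normalised counts of 74.5 for ABCG2 and 15.96 for CRELD2. M-BM 4 stood above its group with normalised counts of 35.1 for HIST1H1B, 26.8 for LMAN1, 116 for RARRES1, 12.5 for SLC43A3, 65.0 for GPD2, 31.2 for CEACAM6, 23.4 for S100A8, 16.7 for MUC1, 2.85 for KRT4, 30.2 for DHRS9 and 15.8 for BAMBI. S-BM 1 stood below its group with normalised counts of 28.9 for GBP2 and 38.3 for TUBB3. S-BM 1 stood above its group with normalised counts of 32.6 for FAM83A, 192 for S100P, 39.4 for LYAR, 118 for GPT2 and 105 for DHRS9. S-BM 2 stood below its group with normalised counts of 6.88 for FOSL1, 11.2 for MAFF, 239 for ITGA2 and 22.9 for CD274. S-BM 2 stood above its group with normalised counts of 1.06 for SPARC, 230.4 for IGFBP5, 73.2 for PDGFC, 107 for TMPRSS4, 206 for CDKN2B, 95.4 for CCNG2, 325 for SLC1A3, 345 for ACLY, 115 for NOTCH3 and 71.1 for TEAD2. S-BM 4 stood above its group with normalised counts of 22.6 for TRAF2. The source of these deviations was not tested.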

How the results depend on the processing

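Across the 20 alternatives, 94 of 100 values of the counts over all genes stayed within 1.5 times the values reported. The 6 that did not are at least 2-fold counts: 171 higher and 275 lower with a pseudocount of 10, 664 and 831 of 12596 genes with the filter at a value of 1, and 689 and 844 of 18943 genes with no filter beyond a value above 0. The last 2 settings test more genes. Leaving out 1 library in turn gave 4285 to 4771 calls, 2131 to 2418 higher, 2154 to 2375 lower, 316 to 403 at least 2-fold higher and 486 to 609 at least 2-fold lower. Without S-BM 3 and S-BM 4 there were 4303 calls, and without M-BM 4 as well 4249, a setting added after the data were seen. edgeR on recovered reads gave 4978 calls and DESeq2 5190, TMM factors 4994, and quantile normalization 5025 (2641 higher and 2384 lower). Residual correlations were −0.018, 0.106, 0.023 and −0.282 between same-numbered libraries, and −0.286 to 0.285 between differently numbered ones. Neither these values nor the labels settle whether numbers pair the libraries. With the replicate number as a block the count was 4879, and of the named genes CPT1A lost its call (adjusted p = 0.0636, limma). Of the 133 genes called among the 142 named by the rule and in the text, 121 kept the call in every alternative. ERBB2 changed direction, at −0.45 (adjusted p = 0.0471, limma) without S-BM 3 and S-BM 4. Of gene list counts, 1727 stayed within 1.5 times and 113 did not. Depth limits genes under 3 reads, most in S-BM 3.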
